A study of Homo sapiens with 8 samples.

Results

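The genes of glutathione synthesis and cystine uptake were followed as a set of 8 genes named by symbol. SLC7A11 and SLC3A2 take up cystine, GCLC, GCLM and GSS build glutathione, and GSR recycles it. GGCT and GGT1 belong to the gamma-glutamyl cycle, through which glutathione is broken down. The set was chosen by name, with earlier results of these data known, and each gene matched 1 gene of the 60291 in the count files. All 8 reached 10 reads in 1 or more of the compared libraries and were tested among 17811 genes.

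Glutathione is a tripeptide of glutamate, cysteine and glycine and the main soluble thiol of the cell, used to detoxify peroxides and electrophiles. Its cysteine often enters as cystine, the oxidised dimer, through the cystine/glutamate exchanger, in which SLC7A11 is the transporting light chain and SLC3A2 the heavy chain that brings it to the cell surface. Glutamate cysteine ligase, made of the catalytic subunit GCLC and the modifier subunit GCLM, carries out the rate-limiting step, and GSS adds glycine. Several of these genes are textbook targets of NRF2, the transcription factor encoded by NFE2L2, which is held low by KEAP1 in normal cells.

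The study silenced NFE2L2 in A549, an established human lung adenocarcinoma line in which a loss-of-function mutation of KEAP1 leaves NRF2 constitutively high, and sequenced ribosomal-RNA-depleted total RNA. In each transfection 250000 cells received 5 nmol of siRNA, a short duplex that directs the degradation of matching mRNA, with Lipofectamine RNAiMAX, and RNA was taken 48 h later. The NFE2L2 siRNA group had 3 libraries from 3 different duplexes against NFE2L2, each transfected once, and the control siRNA group had 4 libraries from 2 control duplexes, each transfected in duplicate. A mock library received Lipofectamine only and was set beside the others without a test. All libraries came from the KEAP1-mutant A549 line. Because each NFE2L2 duplex was transfected once, the spread between NFE2L2 siRNA libraries included differences between duplexes. The spread between control libraries came in part from repeats of the same duplex. In bulk RNA, fewer cells expressing a gene and less RNA per cell cannot be told apart.

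Levels are given as CPM, counts per 1000000 gene counts of the library after TMM scaling, a correction for differences in library composition. The 8 libraries held from 35525141 to 41645410 gene counts. NFE2L2 itself had 1178, 2044 and 1262 reads with duplexes 1, 2 and 3, against 3974 to 4227 reads in the control libraries and 4408 in the mock library. The groups were thus fully separate. The remaining NFE2L2 level was 29.5, 46.6 and 26.6% of the control mean, so duplex 2 left the most and duplex 3 the least. Of the 17811 genes, 243 were reduced and 248 increased with NFE2L2 siRNA at an adjusted p under 0.01 by edgeR's quasi-likelihood test, that is 1.36% and 1.39%, and the median log2 fold change of all genes tested was 0.01. Epithelial keratins marked the cells in every library, and KRT8 alone ranged from 4031 to 6285 CPM over the NFE2L2 siRNA and control siRNA libraries.

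The stretches below show where the NFE2L2 recognition letters occur near the starts of these genes. NRF2 binds with small MAF proteins at antioxidant response elements, whose core was searched as TGACNNNGC on both strands of windows from 250 bases before to 50 bases after each RefSeq start of GRCh38.p14. Windows existed for 4 of the 8 genes, namely GCLC, GCLM, SLC3A2 and GGT1, with 7 windows among them. The core occurred in 13.3% of all 35116 windows of the table, and among the 7 windows it occurred in 1 window each of GCLM, SLC3A2 and GGT1. Each match is printed with its flanks as 30 bases of GRCh37, the core in capitals, read in the direction in which the core reads TGAC. The GCLM stretch is chr1:94375002-94375031 on the plus strand, with the match 34 to 26 bases before the RefSeq start on the strand opposite to GCLM. The SLC3A2 stretch is chr11:62649124-62649153 on the plus strand, with the match 37 to 29 bases before the start of its window 3 and inside the annotated gene but in no exon. The GGT1 stretch is chr22:24999120-24999149 on the minus strand, with the match 29 to 21 bases before the start of its window 2, inside a GGT1 exon of the annotation.
GCLM: tggaagacaaTGACTAAGCagaaatcgtag
SLC3A2: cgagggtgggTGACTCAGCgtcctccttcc
GGT1: ttccctgctgTGACCCAGCtcctccttccc
GCLC is shown for contrast with its partner subunit, as the 250 bases before its RefSeq start at chr6:53409900-53410149 on the minus strand, which the annotation places within the GCLC gene and in no exon. No stretch of it reads TGACNNNGC, which says only that these letters are not in this window.
GCLC: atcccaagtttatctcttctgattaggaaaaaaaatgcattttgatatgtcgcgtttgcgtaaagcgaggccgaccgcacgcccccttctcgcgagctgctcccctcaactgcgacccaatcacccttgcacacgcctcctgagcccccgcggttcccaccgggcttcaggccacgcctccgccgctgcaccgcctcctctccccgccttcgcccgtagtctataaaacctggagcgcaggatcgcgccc
Another element, the core of the C/EBP-ATF response element that ATF4 binds, was searched as TGATGNAA on both strands. It occurred in 3.62% of all windows and, among these genes, once, in SLC3A2 window 3, where the match TGATGTAA lay 38 to 45 bases after the start on the opposite strand. Among the 3 genes whose windows held the antioxidant core, GCLM was reduced with NFE2L2 siRNA, whereas SLC3A2 and GGT1 did not pass the test, as described below.

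Expression of 4 of the 8 genes was reduced when NFE2L2 was silenced: SLC7A11, GCLM, GCLC and GSR. Against this stand the 1.36% of all genes tested that were reduced. Since the 8 genes were chosen with earlier results of these data known, this contrast is not a test of the set. SLC3A2, GGCT, GSS and GGT1 did not pass the test, and no gene of the set was increased by edgeR or by DESeq2, which called 3.32% of all genes as reduced, the same 4 among them, and 4.08% as increased. At an unadjusted p under 0.05, 5 of the 8 were lower, the 4 and SLC3A2, and GGT1 was higher, against 11.7% of all genes lower and 13.3% higher. In the same 4 reduced genes all 3 libraries with NFE2L2 siRNA were under all 4 controls, as was the case for 11.4% of all genes tested, and in GGT1 all 3 lay above, as for 11.9% of all genes. The median log2 fold change of the 8 genes was −1.10. Summed over the 8 genes, the level was 843, 1250 and 971 CPM with duplexes 1, 2 and 3 and ranged from 2342 to 2494 CPM in the control libraries.

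**Figure D1:**
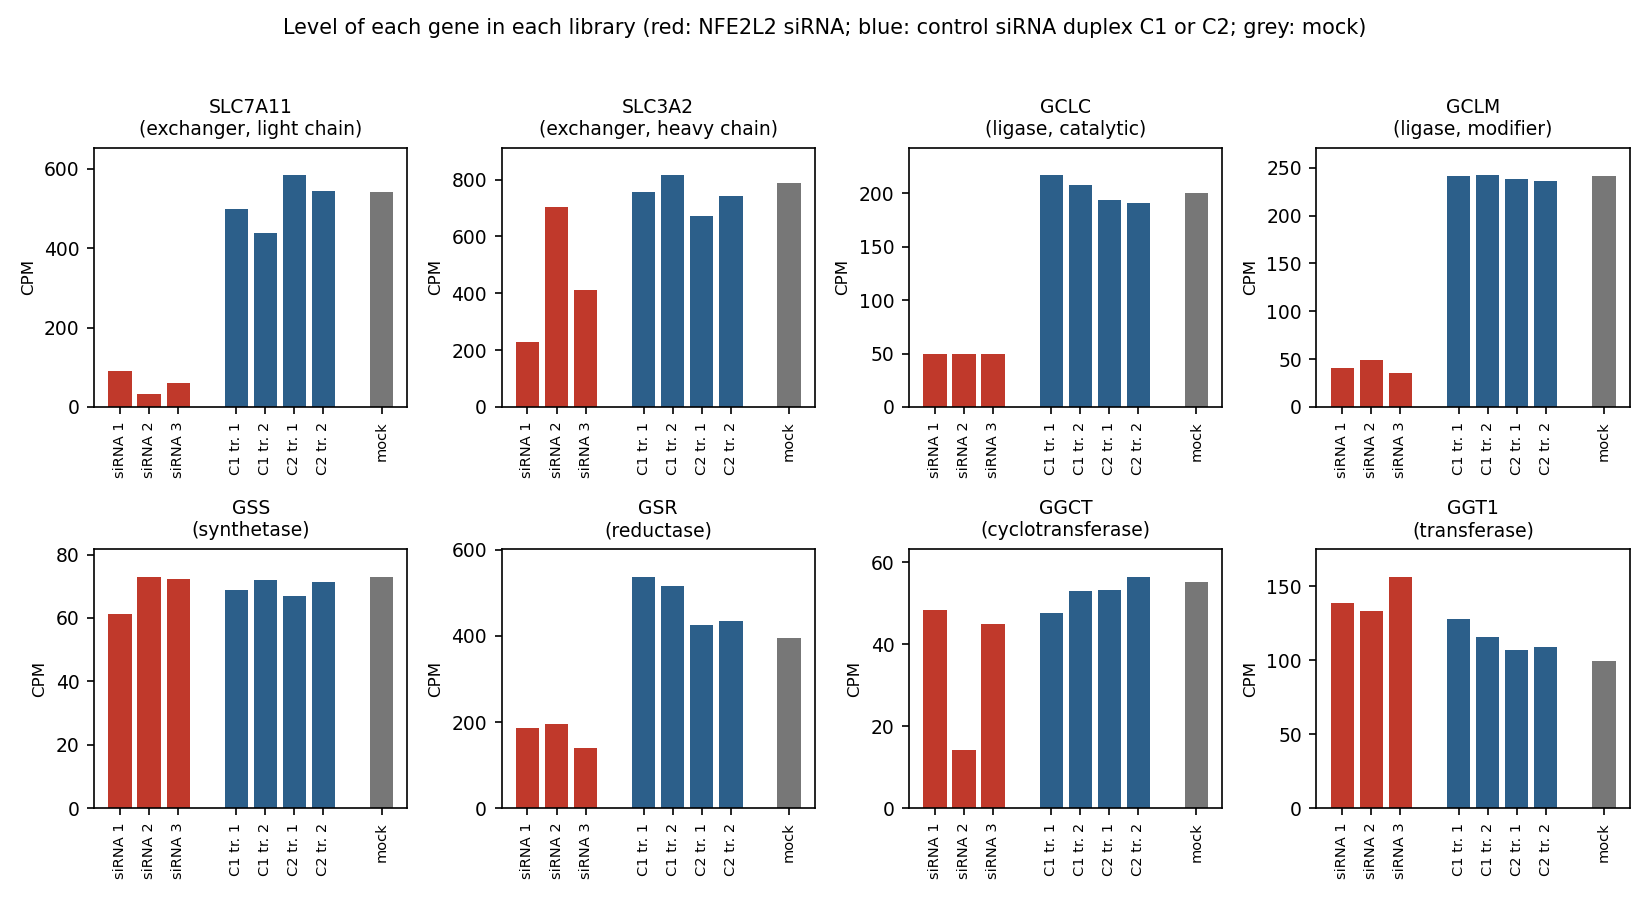
Level of each of the 8 genes in each library, in CPM (vertical axes starting at 0), with 1 bar per library: NFE2L2 siRNA duplexes 1 to 3 in red, the transfections (tr.) of control duplexes C1 and C2 in blue and the mock library in grey. For SLC7A11, GCLC, GCLM and GSR all 3 red bars stand below all 4 blue bars, SLC3A2 and GGCT have red bars of unequal height, and the GSS bars range from 61.1 to 73.1 CPM.

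Among the control libraries the genes were ranked per length, as CPM divided by the kilobases of annotated exon. Lengths were those of all exons in GENCODE 44, whereas the counts were made on GENCODE v19. A length can thus include bases that were not counted, and the ranking is a description only. GSR was highest, at 133 ± 15.7 CPM per kb (SD, n = 4), and SLC3A2 followed at 117 ± 9.19, with ranges of 118 to 149 and 105 to 128 that overlapped. SLC7A11 came next at 53.5 ± 6.54 and GCLM at 44.1 ± 0.488, with no overlap between their ranges of 45.3 to 60.5 and 43.6 to 44.6. Lower levels per length were those of GGCT at 33.0 ± 2.33, GGT1 at 26.3 ± 2.09, GCLC at 23.5 ± 1.38 and GSS at 11.3 ± 0.367. The ranges of GGT1 (24.5 to 29.1) and GCLC (22.2 to 25.2) overlapped, those of GGCT (29.8 to 35.4) and GGT1 did not, and GSS was lowest in every control library. With NFE2L2 siRNA GCLC, SLC7A11 and GCLM were below GSS in this ranking, at 5.74 ± 0.0196, 6.28 ± 2.93 and 7.70 ± 1.24 CPM per kb (SD, n = 3), while GSS was at 11.2 ± 1.07. In each of the 3 libraries these genes lay below GSS.

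The cystine/glutamate exchanger was examined first, since its chains bring in the cysteine for glutathione. SLC7A11 (ENSG00000151012.9), the cystine-transporting light chain, lies at chr4:139085251-139163503 on the minus strand of GRCh37. Its level was 89.4, 32.9 and 59.3 CPM with duplexes 1, 2 and 3. In the control libraries it was 498 and 437 CPM with control duplex 1, 584 and 545 CPM with control duplex 2, and the mock library gave 541 CPM. The groups did not overlap, and the highest NFE2L2 siRNA library was well under the lowest control library. For SLC7A11 the log2 fold change was −3.09 (SE, the standard error, 0.298; adjusted p = 0.000307 by edgeR). This was the largest reduction of the 8 genes, and the NFE2L2 siRNA libraries also spread widely, to 17.3, 6.38 and 11.5% of the control mean. Duplex 2, which left the most NFE2L2, left the least SLC7A11.

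SLC3A2 (ENSG00000168003.12), the heavy chain, lies at chr11:62623476-62656352 on the plus strand. With duplexes 1, 2 and 3 its level was 229.6, 703 and 413 CPM. The control libraries had 756 and 815 CPM with control duplex 1 and 672 and 743 CPM with control duplex 2, and the mock library had 788 CPM. Duplex 1 gave the lowest level, duplex 3 an intermediate one, and the duplex 2 library fell within the range of the control libraries, so the groups overlapped. The log2 fold change was −0.74 (SE 0.293, 95% interval −1.39 to −0.08) and did not pass the test after adjustment (adjusted p = 0.155 by edgeR). Without the duplex 2 library it was −1.23 with an adjusted p of 0.00686 by edgeR, which passed the threshold. SLC3A2 also serves other amino acid transporters as heavy chain, among them the one with SLC7A5 as light chain.

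The ratio of the SLC7A11 to the SLC3A2 reads was compared within each library, which removes library scaling. On the log2 scale it was −1.36, −4.42 and −2.80 with duplexes 1, 2 and 3. It was −0.60 and −0.90 with control duplex 1, −0.20 and −0.45 with control duplex 2 and −0.54 in the mock library. The light chain was thus lower relative to the heavy chain in every NFE2L2 siRNA library than in any control library. The group means were −2.86 ± 1.53 (SD, n = 3) and −0.54 ± 0.291 (SD, n = 4), a difference of −2.32 (two-sided exact permutation test, p = 0.0571). That is the smallest p the 35 divisions of 7 libraries allow, so no value of this kind could reach 0.05.

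Glutamate cysteine ligase was reduced in both subunits. GCLC (ENSG00000001084.6), the catalytic subunit, lies at chr6:53362139-53481768 on the minus strand. Its level was 49.5, 49.3 and 49.7 CPM with duplexes 1, 2 and 3, from 1770, 1940 and 2114 reads. In the control libraries it was 217 and 208 CPM with control duplex 1 and 194 and 191 CPM with control duplex 2, and the mock library had 200.3 CPM. The 3 duplexes gave nearly the same GCLC level, at 24.4, 24.4 and 24.5% of the control mean, although they left unequal amounts of NFE2L2. On the log2 scale GCLC changed by −2.03 (SE 0.0888, adjusted p = 3.45e-06 by edgeR).

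GCLM (ENSG00000023909.5), the modifier subunit, lies at chr1:94350755-94375012 on the minus strand, so its annotated 5′ end abuts the antioxidant core printed above, which shares 1 base with its first exon. The NFE2L2 siRNA libraries had 1439, 1933 and 1529 reads, which were 40.2, 49.2 and 35.9 CPM. The control libraries had 8970, 9004, 8807 and 8535 reads and from 236 to 242 CPM, and the mock library had 9646 reads. The groups were far apart, the control libraries varied by less than for any other gene of the set relative to their mean, and the order of the duplexes (3 lowest, then 1, then 2) was that of NFE2L2 itself. On the log2 scale GCLM changed by −2.52 (SE 0.119, adjusted p = 4.50e-06 by edgeR), and the duplexes left 16.8, 20.5 and 15.0% of the control mean.

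The balance of the subunits was compared as the log2 ratio of GCLM to GCLC reads. It was −0.30, −0.01 and −0.47 with duplexes 1, 2 and 3, against 0.15 and 0.22 with control duplex 1, 0.29 and 0.31 with control duplex 2, and 0.27 in the mock library. GCLM reads exceeded GCLC reads in every control library and in none of the NFE2L2 siRNA libraries. The means were −0.26 ± 0.234 (SD, n = 3) and 0.24 ± 0.0711 (SD, n = 4), and the difference of −0.50 again had the smallest p that could be reached (two-sided exact permutation test, p = 0.0571).

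**Figure D2:**
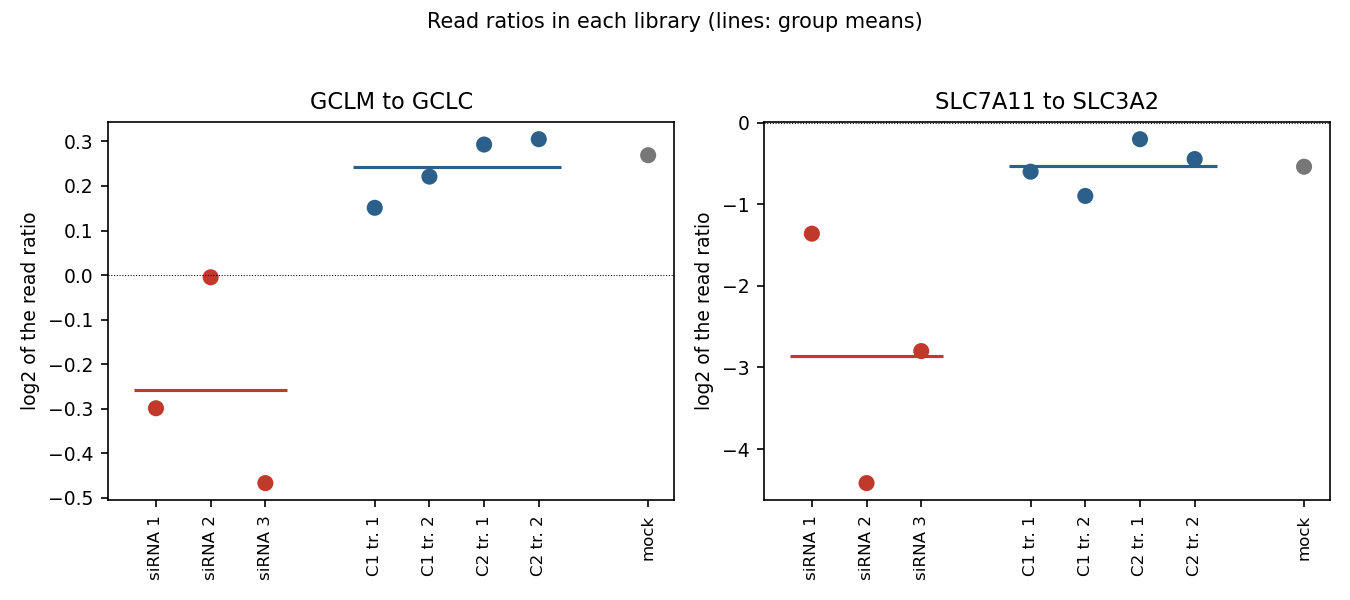
Log2 of the GCLM to GCLC read ratio (left) and of the SLC7A11 to SLC3A2 read ratio (right) in each library, with red points for NFE2L2 siRNA duplexes, blue points for control duplexes C1 and C2, a grey point for the mock library and lines at the group means. Both ratios are lower in all 3 NFE2L2 siRNA libraries than in all 4 control libraries, and the SLC7A11 to SLC3A2 ratio reaches its lowest value, −4.42, with duplex 2.

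The final step of synthesis did not follow the ligase. GSS (ENSG00000100983.5), glutathione synthetase, lies at chr20:33516235-33543830 on the minus strand. It had 61.1, 72.8 and 72.2 CPM with NFE2L2 siRNA, 68.8, 71.9, 67.0 and 71.3 CPM with control siRNA and 73.1 CPM in the mock library. The groups overlapped, with duplex 1 lowest and duplexes 2 and 3 above the control libraries. GSS had a log2 fold change of −0.02 (SE 0.0927, adjusted p = 0.914 by edgeR), and its 95% interval, −0.23 to 0.19, leaves out a reduction of the size seen for GCLC or GCLM.

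Glutathione reductase, which returns oxidised glutathione to the reduced form with NADPH, was reduced. GSR (ENSG00000104687.8) lies at chr8:30535583-30585363 on the minus strand. Its level was 186, 195 and 139.6 CPM with duplexes 1, 2 and 3. It was 538 and 516 CPM with control duplex 1 and 426 and 435 CPM with control duplex 2. The groups did not overlap, and as for GCLM the duplexes stood in the order of NFE2L2, with 38.9, 40.8 and 29.2% of the control mean. On the log2 scale GSR changed by −1.46 (SE 0.143, adjusted p = 0.000332 by edgeR). The mock library had 396 CPM, below every control library and above every NFE2L2 siRNA library. With control duplex 2 as the only control, which leaves 2 control libraries, the fold change of GSR was −1.31 with an adjusted p of 0.0131, and that of SLC7A11 −3.22 with 0.0105 by edgeR, so both then missed the threshold.

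The gamma-glutamyl cycle, through which glutathione is broken down, was represented by GGCT and GGT1. GGCT (ENSG00000006625.13), which releases the amino acid after a gamma-glutamyl group as oxoproline is formed, lies at chr7:30536237-30544457 on the minus strand. It had 48.3, 14.1 and 44.9 CPM with duplexes 1, 2 and 3, against 47.5, 53.0, 53.3 and 56.5 CPM in the control libraries and 55.1 CPM in the mock library. Duplex 2 alone was low, at 26.9% of the control mean, and duplex 1 fell inside the control range. A library this far apart, with 1 NFE2L2 siRNA library at or below 0.5 times the lowest of the other 6, was found for 2.53% of all genes tested. That criterion was set after the GGCT values were seen. The log2 fold change of GGCT was −0.56 (SE 0.330, 95% interval −1.29 to 0.18, adjusted p = 0.330 by edgeR), and without the duplex 2 library it was −0.19.

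GGT1 (ENSG00000100031.14), the cell-surface gamma-glutamyltransferase that starts the breakdown of extracellular glutathione, lies at chr22:24990778-25024972 on the plus strand. Its level was 138, 133 and 156 CPM with NFE2L2 siRNA, 127, 116, 107 and 109 CPM with control siRNA and 99.7 CPM in the mock library. Every NFE2L2 siRNA library was above every control library, but by less than for the reduced genes. The log2 fold change of 0.31 (SE 0.0979, 95% interval 0.09 to 0.53) did not pass the test (adjusted p = 0.0805 by edgeR). GGT1 has near-identical copies on the same chromosome. Reads that align to more than 1 place were counted for no gene, so its level can be too low, by an amount that was not tested.

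**Figure D3:**
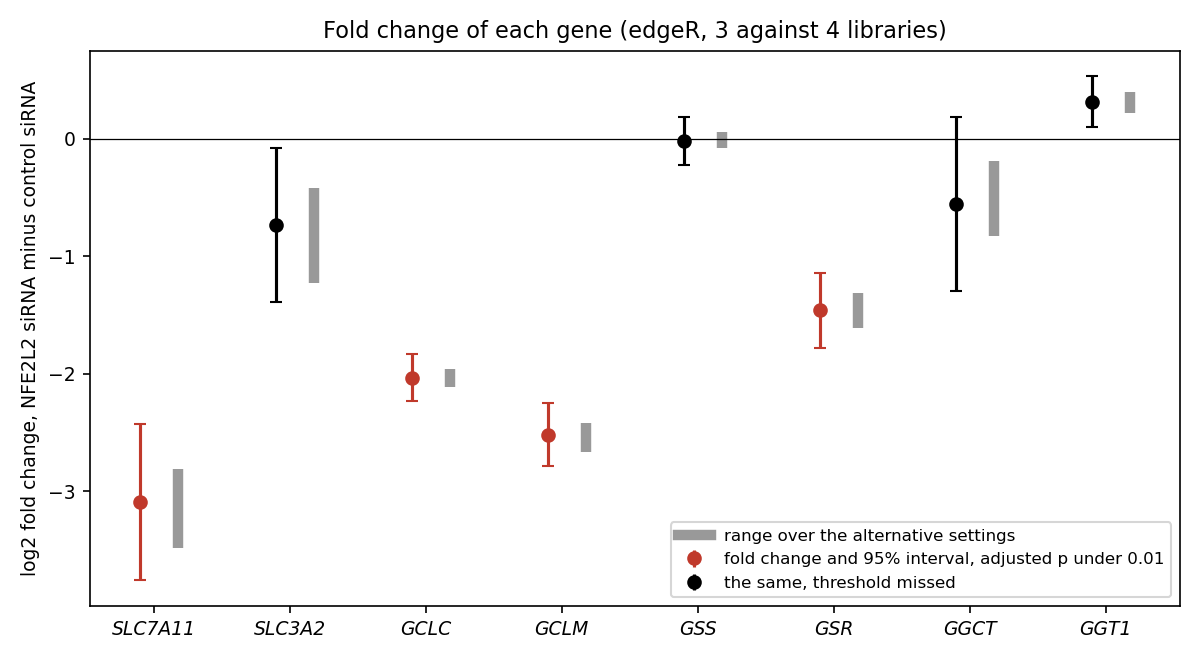
Log2 fold change (NFE2L2 siRNA minus control siRNA, edgeR, 3 against 4 libraries) of the 8 genes as points with 95% intervals, red where the adjusted p was under 0.01 and black otherwise, beside a grey bar for the range over 18 alternative settings. SLC7A11, GCLC, GCLM and GSR stay below 0 throughout, from −3.48 for SLC7A11 to −1.31 for GSR, the SLC3A2 bar runs from −1.23 to −0.42, and the GSS bar spans 0.

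The duplexes were then compared across the set, as levels relative to the control mean. Every duplex brought SLC7A11, GCLC, GCLM and GSR to 40.8% or less. The duplexes gave closely similar levels only for GCLC among these, and the ratio of the highest to the lowest duplex was largest for SLC7A11, from 6.38 to 17.3%. SLC3A2 ran from 30.7% with duplex 1 over 55.3% with duplex 3 to 94.2% with duplex 2. Since each duplex was transfected once, a difference between duplexes had no replicate and was not tested.

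**Figure D4:**
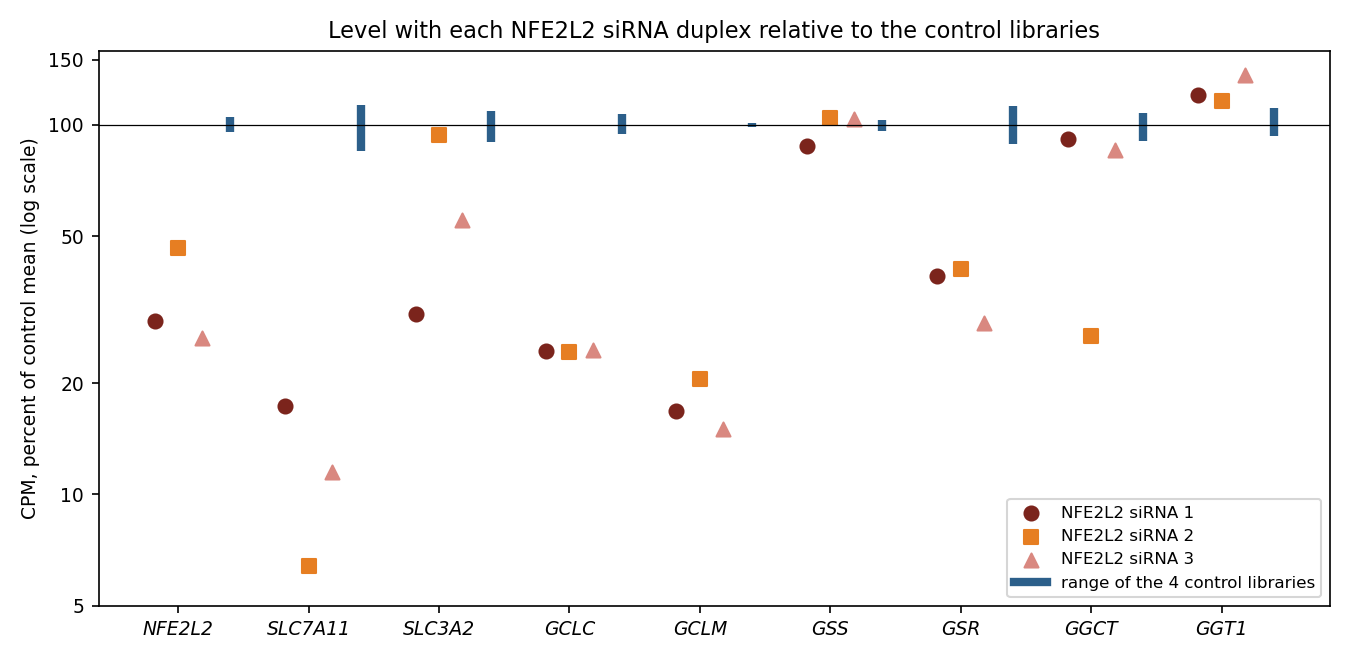
Level with each NFE2L2 siRNA duplex as a percent of the mean of the 4 control libraries (log scale) for NFE2L2 and the 8 genes, with a circle, square and triangle for duplexes 1, 2 and 3 and a blue bar for the range of the control libraries. The symbols coincide for GCLC near 24.4%. The square of duplex 2 is highest for NFE2L2, SLC3A2, GCLM, GSS and GSR and lowest for SLC7A11, GGCT and GGT1. GGT1 is the gene with all symbols above the control bar.

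The control libraries themselves were compared by duplex, control duplex 2 against control duplex 1 with 2 libraries each, a contrast in which 3.28% of 17261 genes passed the threshold. None of the 8 genes did by edgeR, where 3 of the 8 had an unadjusted p under 0.05, as did 26% of all genes tested. The largest of their differences were those of GSR, at −0.29 on the log2 scale (adjusted p = 0.0219 by edgeR), and SLC7A11, at 0.28 (adjusted p = 0.0514). DESeq2, which called 4.51% of all genes in this contrast, called the GSR difference (adjusted p = 0.00105). All 8 differences were at most 0.29 in size, against log2 fold changes of −3.09 to −1.46 for the 4 genes that passed with NFE2L2 siRNA. The mock library fell within the range of the control libraries for GCLC, GCLM, SLC7A11, SLC3A2 and GGCT, above it for GSS and below it for GSR and GGT1.

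Of the wider pathway, 5 lists were described by counts and medians, to be read against the 1.36% of all genes tested that were reduced and the 1.39% that were increased. The gamma-glutamyl cycle and glutathione breakdown list had 12 tested genes of 18, with 1 reduced (1.36% of all genes), none increased and a median log2 fold change of 0.04, against 0.01 for all genes tested. CHAC2, which degrades glutathione inside the cell, had 12.6, 12.5 and 10.3 CPM with NFE2L2 siRNA and 17.4 to 22.4 CPM in the control libraries. All 3 libraries were below the control range, as for 11.4% of all genes tested (log2 fold change −0.79, SE 0.130, adjusted p = 0.00641 by edgeR). DESeq2 called the same gene only, as reduced (3.32% of all genes by DESeq2). Without the duplex 3 library CHAC2 did not pass, and without the duplex 2 library ANPEP, a membrane aminopeptidase, passed as well, as increased. CHAC1, its stress-induced relative, did not pass (log2 fold change −0.19, adjusted p = 0.643).

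Cysteine can also be made from methionine by transsulfuration. Of 21 genes in the list of methionine cycle, transsulfuration and cysteine use, 17 were tested and none was called by edgeR, with a median log2 fold change of −0.02. Unadjusted p-values under 0.05 were found for 6 of the 17 genes as lower (11.7% of all genes) and 1 as higher (13.3% of all genes), CSAD, a decarboxylase on the way from cysteine to taurine. CSAD was called as increased by DESeq2 (4.08% of all genes), and by edgeR without the duplex 2 library. CBS, which joins homocysteine to serine, had 4.36, 8.42 and 10.1 CPM with NFE2L2 siRNA and 5.75 to 9.19 CPM in the controls (log2 fold change 0.03, 95% interval −0.55 to 0.62, adjusted p = 0.954). CTH, which releases cysteine from cystathionine, had 23.7, 21.0 and 18.7 CPM against 19.5 to 21.9 CPM (log2 fold change 0.05, 95% interval −0.20 to 0.30, adjusted p = 0.832). In both genes the groups overlapped.

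Amino acid carriers and enzymes of glutamate supply made up a list of 22 genes, of which 18 were tested. Only SLC7A8, a light chain for large neutral amino acids, passed, as increased (1.39% of all genes), and the median of the list was 0.06. DESeq2 also called GLUL, which makes glutamine from glutamate, as increased (4.08% of all genes by DESeq2). SLC7A8 reads numbered 77, 64 and 141 with duplexes 1, 2 and 3, from 18 to 30 in the control libraries and 44 in the mock library. Its level rose by 1.86 in log2 terms (SE 0.286, adjusted p = 0.00469 by edgeR), and did not pass without the duplex 3 library. SLC7A5 and SLC1A5, a light chain partner of SLC3A2 and a glutamine carrier, were looked at after their values were seen because they varied between duplexes as SLC3A2 did. SLC7A5 was at 16.6, 132 and 58.5% of the control mean with duplexes 1, 2 and 3 and SLC1A5 at 37.5, 94.5 and 65.9%, so in both, as in SLC3A2, duplex 1 was lowest and duplex 2 highest. Neither passed the test (adjusted p = 0.553 and 0.162 by edgeR).

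Carriers of glutathione and its conjugates, 10 genes, all tested, included 2 that were reduced (1.36% of all genes) and none that was increased, with a median of −0.35. ABCC2, an apical export pump for glutathione conjugates, had 193, 274 and 270.3 CPM with NFE2L2 siRNA and 664 to 897 CPM in the control libraries. Its groups were clearly separate (log2 fold change −1.64, SE 0.154, adjusted p = 0.000275 by edgeR). ABCC1, a related pump of the basolateral membrane, had 183, 171 and 164 CPM against 272 to 337 CPM. Again the groups did not overlap (log2 fold change −0.82, SE 0.0981, adjusted p = 0.00118 by edgeR). Of all genes tested, 11.4% were likewise below the control range in every NFE2L2 siRNA library. DESeq2, which called 3.32% of all genes as reduced and 4.08% as increased, called these and, in addition, ABCC3 as reduced and ABCC4 as increased.

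**Figure D5:**
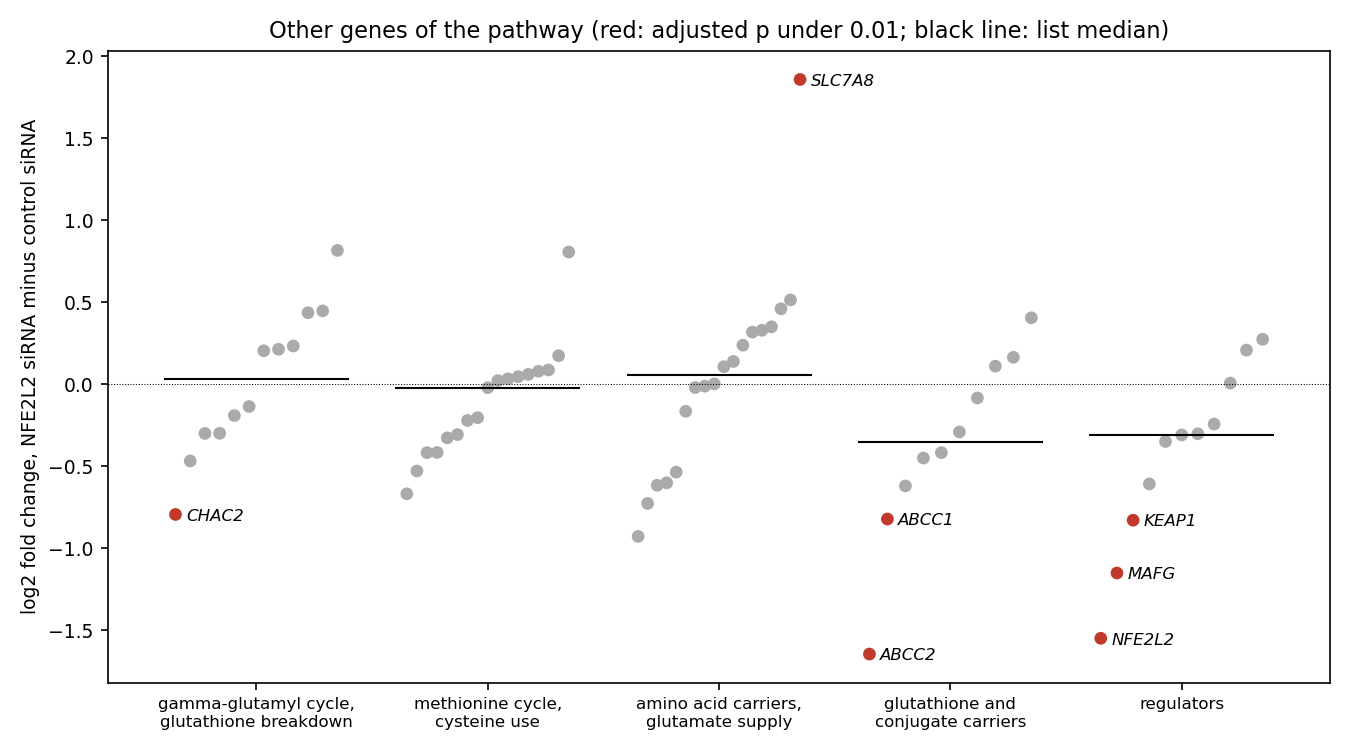
Log2 fold change (NFE2L2 siRNA minus control siRNA) of every tested gene in the 5 lists, 1 point per gene in rising order within a list, red and named where the adjusted p was under 0.01, with a black line at the list median. The named genes are CHAC2, SLC7A8, ABCC1, ABCC2, KEAP1, MAFG and NFE2L2, and the medians run from −0.35 for the glutathione carriers to 0.06 for the amino acid carriers.

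Regulators of these genes formed the last list, with 11 of 12 genes tested, 3 reduced (1.36% of all genes), none increased and a median of −0.31. The siRNA target NFE2L2 was itself 1 of the 3. Besides the targeted NFE2L2 (log2 fold change −1.55, SE 0.178, adjusted p = 0.000994 by edgeR), they were MAFG, a small MAF partner of NRF2, and KEAP1. MAFG had 58.0, 52.4 and 47.7 CPM with NFE2L2 siRNA against 115 to 121 CPM (log2 fold change −1.15, adjusted p = 0.000122). KEAP1 had 38.5, 60.4 and 44.9 CPM against 78.3 to 90.9 CPM (log2 fold change −0.83, adjusted p = 0.00922). KEAP1 did not pass without the duplex 1 library or without the duplex 3 library. ATF4, which activates SLC7A11 and other amino acid genes under stress, had 188 to 211 CPM against 232 to 270.2 CPM. It was below the control range throughout, as were 11.4% of all genes tested, and did not pass (log2 fold change −0.30, adjusted p = 0.0777 by edgeR).

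Markers were set beside these results. The summed level of 6 epithelial genes was 8448 to 13070 CPM with NFE2L2 siRNA, 8679 to 9293 CPM in the control libraries and 10890 CPM in the mock library. None of the 6 passed by edgeR, with 3 at an unadjusted p under 0.05, all higher (13.3% of all genes). DESeq2, which called 4.08% of all genes as increased, called 2 of these, CDH1 and KRT19, as increased. Of 8 genes that mark blood, stromal or endothelial cells, none was at 0 in every library and 3 had enough reads to be tested. Of these, COL1A1 and CDH5 were increased (adjusted p = 0.000493 and 0.00820 by edgeR), as were 1.39% of all genes tested. COL1A1 had 9.25 to 13.7 CPM with NFE2L2 siRNA and 3.96 to 4.54 CPM with control siRNA, and CDH5 had 18 to 39 and 4 to 8 reads. Their summed level was 10.1 to 14.7 CPM against 4.62 to 4.89 CPM, and most of it was COL1A1. PDGFRB, the other gene tested, did not pass (log2 fold change 0.525, adjusted p = 0.469 by edgeR). COL1A2 and VWF, also among the 8, had too few reads to be tested, and their groups overlapped. COL1A2 reads numbered 1, 0 and 3 for duplexes 1, 2 and 3, against 0 to 2 in the control libraries. For VWF the reads were 4, 3 and 3, against 2 to 5. Of PTPRC, a leukocyte marker, no library held over 3 reads. The part of these markers in the results above was not tested.

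Genes that overlap GCLC, GCLM or SLC7A11 or lie within 20 kb of them were examined. Reads on exon bases shared by overlapping genes of 1 strand were counted for neither gene, and the opposite strand was counted apart. The lncRNA ENSG00000231683.2 overlaps GCLC on the same strand, at chr6:53426087-53481969. Its reads numbered 18, 19 and 22 with duplexes 1, 2 and 3, against 580 to 875 in the control libraries and 690 in the mock library. The level thus fell more than that of GCLC (log2 fold change −5.23, SE 0.196, adjusted p = 1.69e-06 by edgeR), and how far the counts of the overlapping pair share transcripts was not tested. LINC01564, on the opposite strand, overlaps the 5′ end of GCLC in the annotation that gave the positions here. The paper instead describes LINC01564 as intergenic, upstream of GCLC and antisense to it. The paper predicted this lncRNA from NFE2L2-mutated tumours and took it as repressed in this same RNA sequencing. It then reports, from RT-qPCR, a response to NFE2L2 silencing in A549 and another lung cancer line. The reads given here are thus not independent of the paper's result. LINC01564 had 1 read in each NFE2L2 siRNA library and 9 to 21 reads in the control libraries (adjusted p = 0.00253 by edgeR). DNTTIP2, 5281 bases from GCLM, had 68.3 to 89.4 CPM with NFE2L2 siRNA and 111 to 119 CPM with control siRNA, and missed the threshold (log2 fold change −0.59, adjusted p = 0.0106 by edgeR) but passed under 6 of 18 alternatives, among them DESeq2 (adjusted p = 7.09e-05) and the fit without the duplex 1 library (0.00173). SLC7A11-AS1, the annotated antisense gene of SLC7A11, reached 2 reads in a single library and GCLC-AS1 had none.

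The genes with the most similar profile over the 8 libraries were sought among 13334 genes with a mean of at least 50 reads, by the Euclidean distance between log2 CPM values centred on each gene's mean. For GCLM the closest was TXNRD1, a thioredoxin reductase, at a distance of 0.22, followed by NAMPTP1 at 0.50 and PIR at 0.52. TXNRD1 was at 17.6, 18.8 and 14.2% of the control mean with duplexes 1, 2 and 3, in the same order of duplexes as GCLM. For GCLC the closest were AMBP at 0.34, AKR1C2, an aldo-keto reductase, at 0.43, and NQO1, a quinone reductase, at 0.44. AKR1C2 was at 29.5, 29.5 and 30.6%, nearly level across the duplexes as GCLC was. AMBP, at 22.9, 27.1 and 24.0%, and NQO1, at 18.7, 26.2 and 20.7%, were less level. SLC7A11 had no gene as near: CYP4F3, a fatty acid hydroxylase, stood at 0.85, TSPAN7 at 1.17 and PTGR1 at 1.34. Like SLC7A11, CYP4F3 was lowest with duplex 2, at 6.54% of the control mean, against 14.5 and 15.5% with duplexes 1 and 3. TSPAN7 was at 10.89, 9.28 and 16.01% with duplexes 1, 2 and 3, from only 16, 15 and 28 reads. Its duplexes 1 and 2 therefore cannot be put in order. PTGR1 was nearly level, at 15.65, 14.56 and 14.28%. All these genes were picked by likeness over the same libraries, so a shared pattern follows in part from the choice.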

How the data were processed

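Per the labels and the study's methods, the authors aligned stranded total RNA reads to hg19 with HISAT 0.1.6 and deposited raw counts per GENCODE v19 gene from HTSeq 0.6.0 (intersection-strict, reverse strand), in which reads on bases shared by exons of overlapping genes on 1 strand are assigned to neither. Entries assigned to no gene, 34.4 to 39.7% per library, were left out. Positions came from GENCODE 44 mapped to GRCh37, which held 55538 of the 60291 identifiers. Genes with at least 10 reads in any of the 7 compared libraries entered the quasi-likelihood F-test of edgeR 4.0.16 (R 4.3.3; TMM scaling, prior count 0.125, Benjamini-Hochberg adjustment over all genes tested, threshold 0.01). Standard errors are the log2 fold change divided by the root of F. Alternatives were DESeq2 1.42.0, limma-voom (limma 3.58.1), other scaling, filters, thresholds and control groups, and leaving out each library. On simulated counts of 17617 genes, edgeR recovered 92% of genes changed by 1 on the log2 scale and 100% of those changed by 2, with 5 false calls. The simulated spread came from the 4 control libraries alone, and changes were placed only in genes with more reads. These shares therefore do not cover the spread between the 3 NFE2L2 duplexes or genes with few reads. Nothing in the labels says the libraries came from separate cultures beyond separate transfections, so p-values measure the spread between these libraries. The 8 genes and all lists were chosen with earlier results of these data known. Named genes were the 8 genes, NFE2L2, list genes past the threshold, 7 listed genes whatever their value, neighbours within 20 kb of GCLC, GCLM or SLC7A11, and the 3 genes most like each of those. Depth limits precision by counting error only where reads are few, as for LINC01564, SLC7A8, TSPAN7 and CDH5.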

Additional observations from a re-analysis of the deposited data

How the results depend on the processing

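GCLC and GCLM stayed reduced past the threshold under all 18 alternatives, with log2 fold changes from −2.11 to −1.96 and from −2.67 to −2.42. GSR and SLC7A11 kept their direction under all 18 and their call under 17, the exception being control duplex 2 alone, where 2 of the 8 genes passed in place of 4. Without single libraries 4 to 5 passed, 5 without NFE2L2 siRNA 2, where SLC3A2 was added. The 491 genes past the threshold became 1319 with DESeq2, 1019 with a filter of 1 read, 1456 at an adjusted p under 0.05, 772 with the mock library among the controls, 120 with control duplex 1 alone, 59 with control duplex 2 alone, 78 with each control duplex summed to 1 library, and 163 to 915 without single libraries. The cause of these shifts was not tested. NFE2L2 missed the threshold with control duplex 1 alone, control duplex 2 alone and summed control libraries (adjusted p = 0.0229, 0.0259 and 0.0235). Of the other named genes, calls were lost by KEAP1 under 10 alternatives of 18, CHAC2 and SLC7A8 under 8 each, LINC01564 under 4 (adjusted p up to 0.045), ABCC1 under 3 (up to 0.0327), and ABCC2, PIR and CYP4F3 under 1 each, with no change of direction, and DNTTIP2 gained a call under 6 (adjusted p from 7.09e-05 to 0.134 over the 18). GSS, CBS and CTH, near 0, changed sign in places: GSS was 0.012 with library size alone and −0.079 to 0.056 without single libraries, CBS was −0.019 with limma-voom, −0.117 with control duplex 2 alone, −0.065 with the mock library added and −0.221 to 0.311 without single libraries, and CTH was −0.043 to 0.129 without single libraries. With the mock library among the controls the log2 read ratios differed by −0.51 (GCLM to GCLC) and −2.32 (SLC7A11 to SLC3A2), each with p = 0.0357 by the exact permutation test, the smallest that design allows. Between the control duplexes, 566 genes passed by edgeR, 778 by DESeq2, 1736 at an adjusted p under 0.05, 0 by edgeR with all 7 libraries in 1 fit (1293 at an unadjusted p under 0.05) and 0 to 2056 by edgeR without single control libraries (2103 and 2729 at an unadjusted p under 0.05 for the fits with 0). Leaving out each NFE2L2 siRNA library in the list counts was chosen after seeing the data. No paired analysis was possible because an NFE2L2 siRNA number names a duplex, whereas a control number names a repeat of a control duplex.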
